A study of Mus musculus with 14 samples.

Results

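The genes described here are 45 genes of the G2 and M phases of the cell cycle, a list drawn up by gene name from their known roles in entry into mitosis, chromosome segregation and cell division. All 45 were found by symbol among the 22598 genes of the deposited tables. Their levels were measured by paired-end RNA sequencing in 14 libraries of cultured mouse Th2 cells, the helper T cells that make interleukin 4 and direct responses to worms and allergens. Naive CD4+ T cells had been purified from C57BL/6J spleens with beads and a FACS sort for CD4+ TCRb+ cells, then activated and driven towards Th2. Wild-type cultures were collected at day 7 (n = 4) and day 14 (n = 3), and so were cultures with the genotype labelled Ago134, a joint knockout of Ago1, Ago3 and Ago4 (n = 4 and n = 3). These 3 genes encode Argonaute proteins, which bind microRNAs, and the labels name no change to the other family member, Ago2. The series text gives the later time as day 14 in one sentence and as 15 days in another, and the sample titles give 14. Ages of the mice are not given in the labels, nor do the labels say that replicates are separate mice or cultures. The p-values therefore cover no more than the spread of these samples, part of which may be technical.

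Cells pass from G2 into mitosis when CDK1, bound to cyclin A or cyclin B, is switched on by CDC25 phosphatases. Polo and Aurora kinases then build the spindle, the kinetochores attach chromosomes to it, and the spindle checkpoint holds back the anaphase-promoting complex until attachment is complete. CDC20 activates that complex, which marks cyclin B and securin for destruction so that separase can release the sister chromatids, and the central spindle then places the cleavage furrow. Most of these genes are transcribed only in cells that cycle. T cells divide rapidly after activation, and in culture their division slows unless they are stimulated again.

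The libraries held 23326248 to 35803197 counted reads each, and 11591 genes had enough reads to be tested. Levels are given as CPM (counts scaled to a common library total) and changes as log2 fold changes ± SE, with p-values from edgeR's quasi-likelihood test adjusted by Benjamini-Hochberg over all tested genes. A gene is called at an adjusted p under 0.05. Each change given as a value ± SE, also after "rose by", is a log2 fold change. Group values are means ± SD over the n given above. Ago1 had 67 to 141 reads in each wild-type library, 0 reads in 6 of the 7 knockout libraries and 2 in knockout day 14 replicate 3. Of the 45 genes, 44 passed the filter on low counts. Cks2, a small subunit of CDK complexes, did not: it stood at 0 to 0.211 CPM in all libraries. Cdc25c, Bub1 and Kif4 passed it only through the day 14 libraries, because they reached its cutoff of 0.33 CPM in fewer than 3 day 7 libraries. Those 3 entered the tests only through their level at day 14, so their levels over time are given without a test. Counts over time are over the other 41.

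Wild-type day 14 replicate 3 stood apart from the other wild-type day 14 libraries in these genes. It had the highest wild-type day 14 level in 43 of the 45 genes, against 43.6% of all tested genes, and in 32 it exceeded the mean of replicates 1 and 2 more than 5-fold, against 4.22% of all tested genes. Knockout day 7 replicate 4 stood apart at day 7: it had the highest level of its group in 36 of the 45 genes (36.0% of all tested genes) and exceeded the mean of the other 3 more than 2-fold in 26 (7.98% of all tested genes). The table names carry identifiers that fall into 2 series. No label says what these mean, and they were taken here as a sign of the sequencing run: all knockout day 14 libraries belong to the second with wild-type day 7 replicate 1 and wild-type day 14 replicates 1 and 3, and all knockout day 7 libraries belong to the first. If they mark runs, the change over time in knockout cannot be told apart from the run except through the wild-type libraries.

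The promoters of these genes were searched for 2 motifs known from late cell cycle transcription. The CHR, here the letters TTTGAA, is the element through which the DREAM and MuvB-B-MYB-FOXM1 complexes bind such genes, and the CCAAT box is bound by the factor NF-Y. In the RefSeq table (GRCm38.p6; windows from 250 bases before to 50 after a start) 37 of the 45 genes had a window, 40 windows in all. TTTGAA on either strand occurred in 72.5% of the 40 windows, against 11.7% of the windows of all tested genes and 17.9% of all windows. CCAAT on either strand occurred in 82.5%, against 37.7% and 37.4%. Both occurred in 67.5%, against 4.62% and 6.95%. Windows were not matched for base composition, and a match is a description of the letters, not evidence of binding. The windows of 4 of the 5 genes called higher in knockout at day 14 are shown because these genes carry the genotype result below; capitals mark TTTGAA (or TTCAAA, its reverse) and CCAAT (or ATTGG, its reverse), no 2 marked matches overlap, and the table held no entry for the fifth, Depdc1b. The Cks1b window lies at chr3:89418242-89418541 on the minus strand, that of Cdc20 at chr4:118437294-118437593 on the minus strand, that of Cenpa at chr5:30666636-30666935 on the plus strand and that of Plk1 at chr7:122159185-122159484 on the plus strand, each printed 5′ to 3′ along its gene.
Cks1b: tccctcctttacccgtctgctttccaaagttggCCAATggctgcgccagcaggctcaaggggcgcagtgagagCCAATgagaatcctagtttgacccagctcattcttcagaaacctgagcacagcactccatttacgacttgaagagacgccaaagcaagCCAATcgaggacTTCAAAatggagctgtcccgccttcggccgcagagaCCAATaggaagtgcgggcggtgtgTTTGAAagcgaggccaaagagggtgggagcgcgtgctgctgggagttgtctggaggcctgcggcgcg
Cdc20: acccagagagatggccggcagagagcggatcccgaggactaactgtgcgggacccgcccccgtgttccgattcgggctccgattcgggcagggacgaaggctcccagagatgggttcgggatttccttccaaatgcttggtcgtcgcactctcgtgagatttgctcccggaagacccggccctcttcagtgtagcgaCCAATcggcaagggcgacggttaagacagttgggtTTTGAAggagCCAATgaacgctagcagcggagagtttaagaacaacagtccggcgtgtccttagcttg
Cenpa: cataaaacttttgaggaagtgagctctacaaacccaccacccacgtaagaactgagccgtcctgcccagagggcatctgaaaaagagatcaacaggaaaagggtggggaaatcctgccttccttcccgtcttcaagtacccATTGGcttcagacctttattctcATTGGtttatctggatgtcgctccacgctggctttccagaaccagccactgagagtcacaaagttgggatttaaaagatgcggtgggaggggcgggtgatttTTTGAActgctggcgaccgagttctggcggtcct
Plk1: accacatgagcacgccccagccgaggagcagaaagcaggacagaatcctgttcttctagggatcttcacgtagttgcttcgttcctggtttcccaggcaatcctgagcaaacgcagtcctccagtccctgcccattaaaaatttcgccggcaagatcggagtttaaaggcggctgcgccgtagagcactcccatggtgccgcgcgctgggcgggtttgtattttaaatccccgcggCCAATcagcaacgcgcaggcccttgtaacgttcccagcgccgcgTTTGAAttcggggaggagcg
All 4 windows hold both motifs. The Cks1b window has 4 CCAAT matches and 2 TTTGAA matches, those of Cdc20 and Cenpa have 2 and 1, and that of Plk1 has 1 of each. The 11 of the 37 genes with no TTTGAA in any window were Birc5, Bub1, Ccnb1, Cdc25b, Cenpe, Cks2, Mad2l1, Melk, Nek2, Nuf2 and Nusap1.

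At day 7 most of these genes were scarce. Without Cdc25b and Bub3, which were abundant throughout, the other 43 summed to 263 to 301 CPM in 7 of the 8 day 7 libraries and to 430.4 CPM in knockout replicate 4. At day 14 the sum was 223 and 244 CPM in wild-type replicates 1 and 2, 1536 CPM in wild-type replicate 3, and 1739, 2477 and 3399 CPM in the 3 knockout libraries. The knockout libraries were thus all above the wild-type libraries, and wild-type replicate 3 was closer to them than to its own group. In these bulk samples a smaller share of dividing cells and less RNA of these genes per dividing cell cannot be told apart. Per length, in the authors' RPKM, Bub3 was the most abundant of the 45 in knockout at day 14 (206 ± 27.0 RPKM), followed by Birc5 (76.6 ± 39.1), Cdc20 (75.6 ± 24.0), Cdk1 (66.9 ± 29.9) and Ube2c (66.1 ± 35.7). These 4 followers differed by less than their SDs. In wild type at day 7 the order began with Cdc25b (186 ± 18.1) and Bub3 (151 ± 17.2 RPKM), and the next, Cenpa, stood at 16.5 ± 2.04 RPKM. The long genes Mki67 (0.444 ± 0.0308 RPKM in knockout at day 14) and Cenpf (0.228 ± 0.153), used elsewhere as markers of proliferation, were at the bottom of the order with Cks2: Cenpf was lowest, then Cks2, then Mki67.

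**Figure D1:**
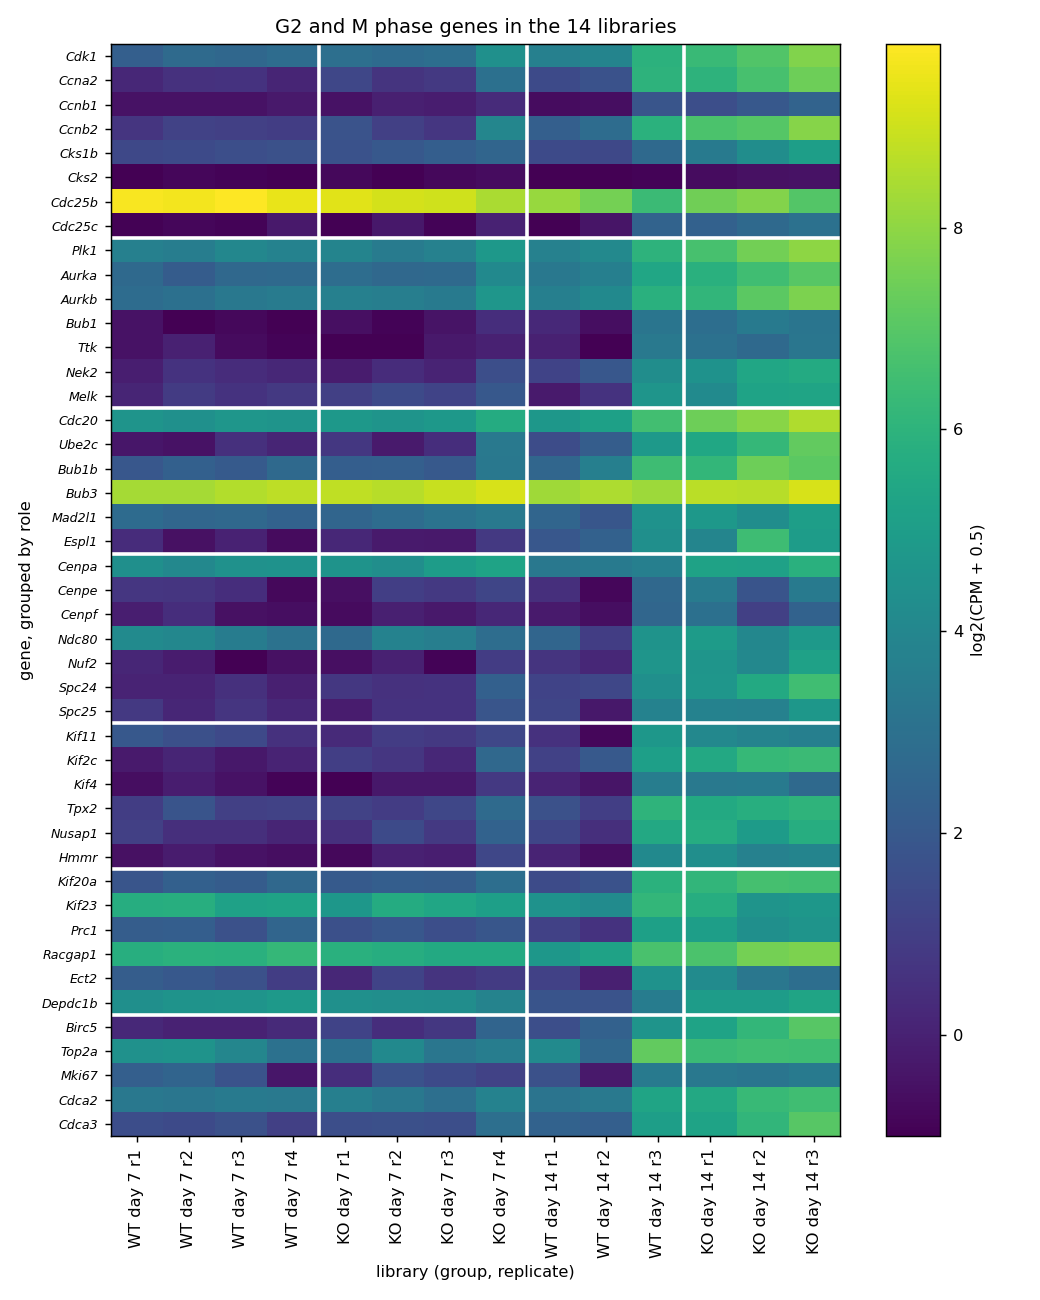
Level of each of the 45 genes (rows, grouped by role and divided by white lines) in each of the 14 libraries (columns), as log2 CPM with a small constant added. Wild-type day 14 replicate 3 resembles the knockout day 14 columns for most rows, and Cdc25b and Bub3 are bright in all columns.

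The genotype comparison at day 14 asked whether these genes differ between Ago1/3/4 knockout and wild-type Th2 cultures late in culture. Cdc20, Plk1, Cks1b, Cenpa and Depdc1b were higher in knockout, with knockout means from 4.00-fold (Cenpa) to 6.19-fold (Cks1b) those of wild type. That is 5 of 44 tested genes called higher and 0 called lower, against 0.845% and 0.578% of all tested genes. At an unadjusted p under 0.05, 23 were higher and 0 lower. The median log2 fold change over the 44 was 1.83, against 0.0085 over all tested genes, and 42 of the 44 were above 0. All 3 wild-type libraries lay below all 3 knockout libraries in 21 of the 45 genes, against 9.71% of all tested genes. Without wild-type replicate 3, all 5 stayed called and 35 more joined them, 40 higher in all with 0 lower and a median of 4.04. Of all tested genes, 12.6% then passed as higher and 9.89% as lower. The counts over the 44 include Cdc25c, Bub1 and Kif4, which passed the filter on low counts only through day 14 libraries. Over the other 41 genes with all libraries, 5 were called higher and 0 lower (median 1.86). The shares were 0.818% and 0.536% of the 11003 tested genes that reach the cutoff in 3 or more day 7 libraries. Without wild-type replicate 3, 37 of the 41 were called higher and 0 lower (median 3.86). That library was singled out by its high level in these same genes, being the highest wild-type day 14 library in 43 of the 45. Leaving it out therefore raises the genotype difference and the interaction in those genes by construction. It likewise lowers their change over time in wild type. Values without replicate 3, here and below, show only how far each result rests on that library. Wild-type replicates 1 and 2 were both below every knockout library in 44 of the 45 genes (24.9% of all tested genes), the exception being Cdc25b.

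**Figure D2:**
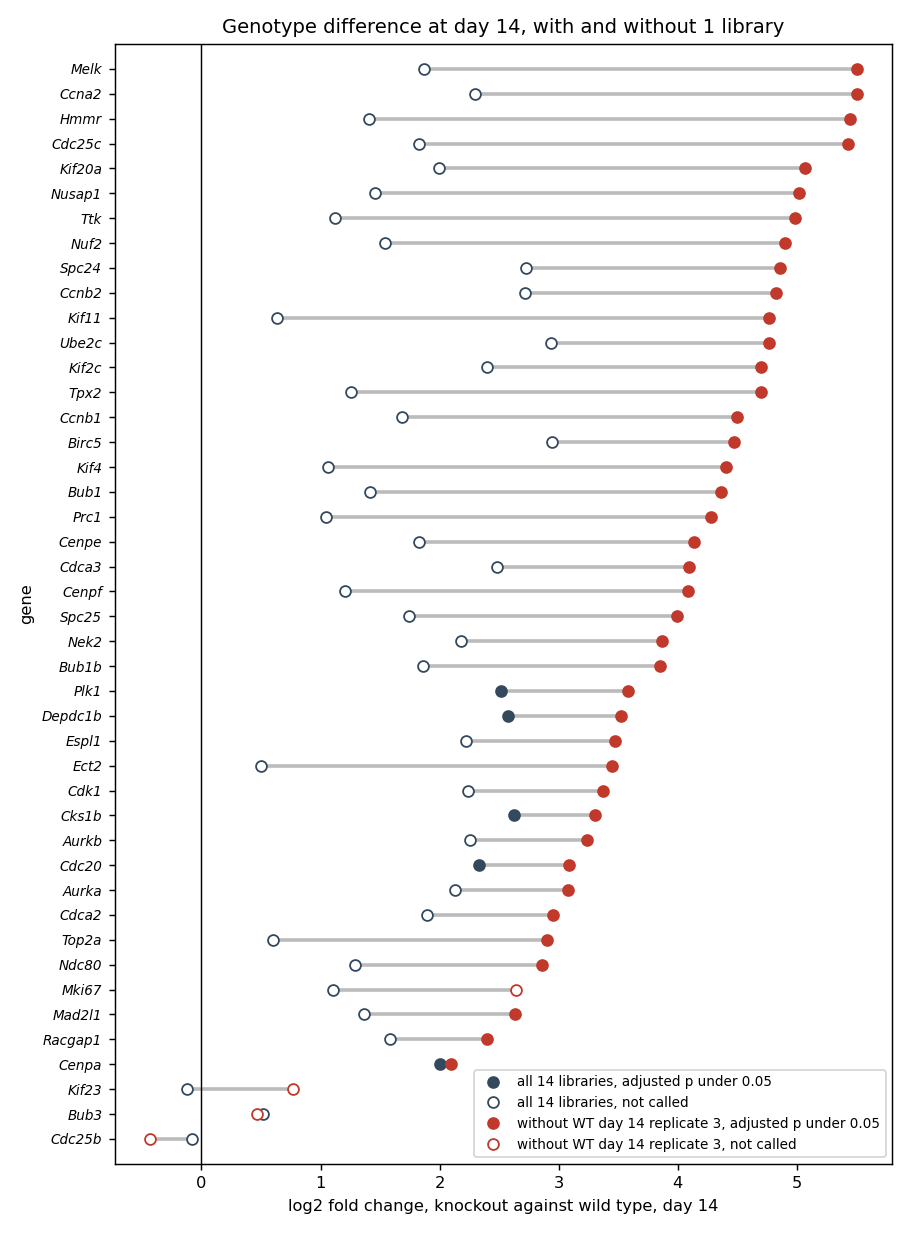
Log2 fold change of knockout against wild type at day 14 for the 44 tested genes (rows), with all libraries (dark) and without wild-type replicate 3 (red); filled points are called. The 5 genes called with all libraries are Plk1, Depdc1b, Cks1b, Cdc20 and Cenpa, and Bub3, Cdc25b, Kif23 and Mki67 are called in neither fit.

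The 5 calls did not all hold when other libraries were left out. Without wild-type day 14 replicate 1 or without knockout day 14 replicate 3 Cenpa alone was called, and without wild-type day 14 replicate 2 Cenpa and Depdc1b were. Without knockout day 14 replicate 1, 8 genes were called, all higher, against 1.95% of all tested genes. Plk1 lost its call without any 1 of 7 day 7 libraries (adjusted p = 0.0504 to 0.0602), knockout replicate 4 being the exception. A fit of the 6 day 14 libraries alone called 0 of the 44 (17 at an unadjusted p under 0.05) and 0 of all 11238 tested genes. DESeq2 called 15 of the 41 genes to which it gave a p-value, all higher, against 3.29% of all its genes higher and 2.78% lower. It gave the other genes of the list no p-value.

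Of CDK1 and its partners, Cks1b was called between genotypes at day 14, 1 of 7 tested, and 6 of 7 were without wild-type replicate 3 (median log2 fold changes 2.24 and 4.50). Without Cdc25c, which passed the filter on low counts only through day 14 libraries, the counts were 1 and 5 of 6 (medians 2.26 and 3.93). Cks1b (ENSMUSG00000028044, GRCm38 chromosome 3, 89415472 to 89418383, minus strand) encodes a small subunit that binds CDKs and helps destroy the inhibitor p27. It stood at 2.16, 2.04 and 5.90 CPM in the wild-type day 14 libraries and at 10.3, 19.2 and 33.0 CPM in the knockout ones, a difference of 2.62 ± 0.48 (edgeR adjusted p = 0.0162; 3.31, adjusted p = 0.00137 without wild-type replicate 3). The groups did not overlap. Transcripts of Cks1brt match 80.7% of its longest transcript, at up to 94.8% identity, so reads of the 2 genes may have been confused. Cdk1, the kinase itself, stood at 12.5, 14.2 and 61.1 CPM in wild type and 79.9, 116 and 218 CPM in knockout (log2 fold change 2.24 ± 0.62, edgeR adjusted p = 0.0767; 3.37, adjusted p = 0.00318 without replicate 3). Ccnb2, a B-type cyclin, stood at 4.31, 6.51 and 59.4 CPM in wild type and 106, 123 and 233 CPM in knockout (log2 fold change 2.71 ± 0.99, adjusted p = 0.15; 4.83, adjusted p = 0.0072 without replicate 3). Ccna2, cyclin A, stood at 2.16, 2.77 and 63.6 CPM in wild type and 64.0, 102 and 169.8 CPM in knockout (log2 fold change 2.29 ± 1.04, adjusted p = 0.22; 5.50, adjusted p = 0.00196 without replicate 3). For Cdk1, Ccnb2 and Ccna2 the groups did not overlap, and none of the 3 passed the test with replicate 3 in its group. Ccnb1, the other B-type cyclin, was low everywhere (3.66 ± 1.18 CPM in knockout at day 14); it has 4 processed pseudogenes up to 99.2% identical, and the rule for reads that match several genes is not stated. The levels of Kif11, Kif2c, Plk1, Cdc20 and Ndc80 are uncertain in the same way, with copies up to 90.6%, 91.7%, 93.5%, 93.7% and 95.0% identical. Exons of Ccna2, Cdc25b, Cdc25c, Cdc20, Ube2c, Kif4, Nusap1, Kif20a and Prc1 overlap a gene on the other strand.

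Of the CDC25 phosphatases, Cdc25b fell over time in both genotypes. Cdc25b, which starts CDK1 activation at the centrosome, was, per length, the most abundant gene of the list in wild type at day 7. It stood at 831, 785, 902 and 713 CPM in the wild-type libraries and 652, 559, 518 and 353 CPM in the knockout libraries. At day 14 it stood at 279.9, 191 and 82.8 CPM in wild type and 177, 226 and 120.4 CPM in knockout. Every day 14 library was below every day 7 library, and the fall passed the test in wild type (log2 fold change -2.13 ± 0.36, edgeR adjusted p = 0.00077) and in knockout (log2 fold change -1.58 ± 0.35, adjusted p = 0.00659). It was the only one of the 41 genes that fell in both, and its genotypes overlapped at day 14 (log2 fold change -0.079 ± 0.35, adjusted p = 0.922). Cdc25c, which acts later at mitotic entry, stood at 0 to 0.531 CPM at day 7, 0, 0.267 and 4.88 CPM in wild type at day 14 and 4.64, 6.00 and 7.78 CPM in knockout. Because Cdc25c passed the filter on low counts only through its day 14 level, its change over time is given without a test. Over time in knockout Cdk1 rose by 3.74 ± 0.59, Ccna2 by 5.28 ± 1.06, Ccnb2 by 4.89 ± 0.97, Ccnb1 by 2.98 ± 0.80 and Cks1b by 2.40 ± 0.43 (edgeR adjusted p = 0.000812, 0.00381, 0.00367, 0.0203 and 0.00167). In wild type Cdk1 (log2 fold change 2.37 ± 0.57, adjusted p = 0.00893), Ccna2 (log2 fold change 4.82 ± 1.07, adjusted p = 0.00529) and Ccnb2 (log2 fold change 4.00 ± 0.96, adjusted p = 0.00864) also passed, but none of these 3 did without replicate 3 (adjusted p = 0.0601, 0.083 and 0.078).

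Of the 7 mitotic kinases, Plk1 was called between genotypes at day 14, and all 7 were without wild-type replicate 3 (median log2 fold changes 2.13 and 3.86). Without Bub1, which passed the filter only through day 14 libraries, the counts were 1 and 6 of 6. Plk1 (ENSMUSG00000030867, chromosome 7, 122159439 to 122169873, plus strand), the Polo kinase of mitotic entry and spindle assembly, stood at 13.1, 16.4 and 63.4 CPM in wild type and 99.98, 180.0 and 251 CPM in knockout (log2 fold change 2.51 ± 0.55, edgeR adjusted p = 0.0362; 3.59, adjusted p = 0.000752 without wild-type replicate 3). The 2 groups were apart, and wild-type replicates 1 and 2 were at the level of day 7 (12.8, 11.6, 15.5 and 13.5 CPM in wild type). The Aurora kinases had the same order of libraries. Aurka, of the spindle poles, stood at 9.52, 12.2 and 41.4 CPM in wild type and 58.2, 89.4 and 129 CPM in knockout (log2 fold change 2.13 ± 0.55, adjusted p = 0.066). Aurkb, of the chromosomal passenger complex, stood at 12.2, 17.0 and 57.2 CPM in wild type and 68.4, 137 and 208 CPM in knockout (log2 fold change 2.25 ± 0.56, adjusted p = 0.0615). Without replicate 3 both passed (log2 fold change 3.08, adjusted p = 0.00278 and 3.23, adjusted p = 0.0022), as did Bub1, Ttk, Nek2 and Melk, so that all 7 kinases were then called. Ttk, the spindle checkpoint kinase MPS1, differed in one respect: wild-type replicate 3 (9.95 CPM) was above all 3 knockout libraries (7.62, 6.06 and 9.11 CPM), with replicates 1 and 2 at 0.483 and 0 CPM. Bub1, which starts checkpoint assembly, stood at 0.669, 0.167 and 8.78 CPM in wild type and 6.97, 10.1 and 8.75 CPM in knockout. The centrosome kinase Nek2 stood at 1.75, 3.34 and 19.4 CPM in wild type and 22.2, 41.4 and 47.9 CPM in knockout. Melk, a kinase of dividing cells, stood at 0.372, 1.00 and 24.6 CPM in wild type and 17.6, 37.7 and 39.6 CPM in knockout. Of these 3, Nek2 had groups that did not overlap.

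The 6 kinases other than Bub1 rose from day 7 to day 14 in knockout. The rise was 3.46 ± 0.51 for Plk1, 3.37 ± 0.52 for Aurka and 3.20 ± 0.52 for Aurkb (edgeR adjusted p = 0.000485, 0.000684 and 0.000974). It was 5.18 ± 1.39 for Ttk, 5.13 ± 0.80 for Nek2 and 3.81 ± 0.96 for Melk (adjusted p = 0.0205, 0.000735 and 0.015). In wild type 4 of the 6 passed: Aurka (log2 fold change 1.96 ± 0.50, adjusted p = 0.0129), Aurkb (log2 fold change 1.74 ± 0.50, adjusted p = 0.0245), Nek2 (log2 fold change 3.48 ± 0.76, adjusted p = 0.00505) and Melk (log2 fold change 3.07 ± 0.96, adjusted p = 0.0356). Without replicate 3 only Nek2 passed (log2 fold change 1.80, adjusted p = 0.0349), and Melk stood at -0.57. Bub1, given without a test over time, stood at 0.223, 0, 0.0958 and 0 CPM in wild type and 0.172, 0.0338, 0.251 and 0.841 CPM in knockout at day 7.

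**Figure D3:**
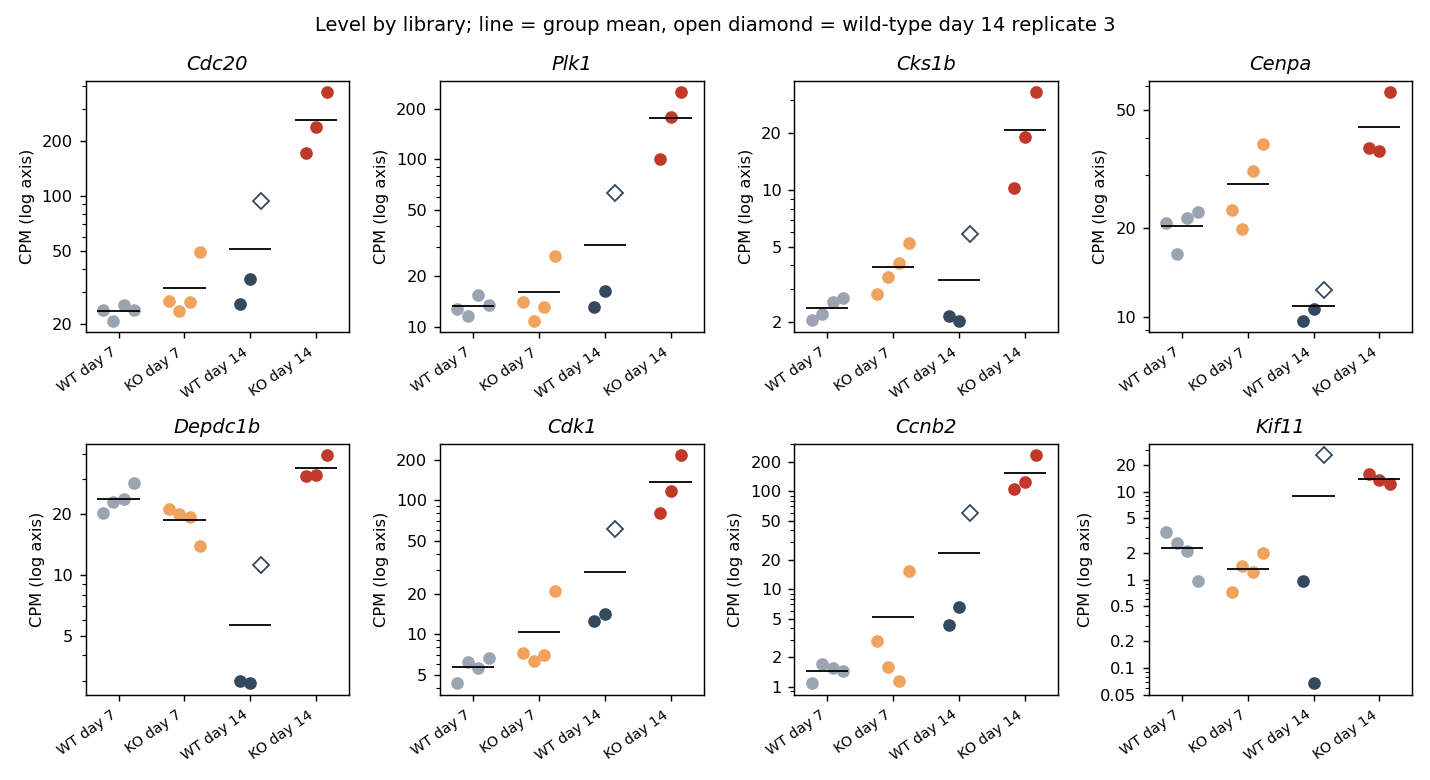
CPM of 8 genes in each library (points, log axis that differs between panels) by group, with the group mean as a line; the open diamond is wild-type day 14 replicate 3. The top row and Depdc1b are the 5 genes called between genotypes at day 14; in Kif11 the diamond lies above all knockout day 14 points.

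Among the 6 genes of the checkpoint, the anaphase-promoting complex and separase, Cdc20 was called between genotypes at day 14, and 5 were without wild-type replicate 3 (median log2 fold changes 2.04 and 3.28). Cdc20 (ENSMUSG00000006398, chromosome 4, 118432901 to 118437352, minus strand), the activator of the complex, stood at 25.8, 35.4 and 93.5 CPM in wild type and 172, 239 and 369 CPM in knockout (log2 fold change 2.33 ± 0.44, edgeR adjusted p = 0.0209; 3.08, adjusted p = 0.000752 without wild-type replicate 3). The groups did not overlap. Cdc20 lies 7.89 Mb from the targeted Argonaute genes on the same chromosome, Kif2c 9.15 Mb and Melk 82.0 Mb. Ube2c, the ubiquitin-conjugating enzyme of the complex, stood at 2.38, 4.07 and 27.9 CPM in wild type and 43.6, 72.8 and 147 CPM in knockout (log2 fold change 2.94 ± 1.10, adjusted p = 0.157; 4.76, adjusted p = 0.0173 without replicate 3). Bub1b, the checkpoint protein BUBR1, stood at 5.43, 12.2 and 87.9 CPM in wild type and 71.6, 173 and 138 CPM in knockout (log2 fold change 1.86 ± 0.75, adjusted p = 0.181), with wild-type replicate 3 inside the knockout range. Mad2l1, the checkpoint protein MAD2, stood at 5.21, 3.27 and 22.1 CPM in wild type and 26.6, 19.2 and 33.1 CPM in knockout (log2 fold change 1.37 ± 0.53, adjusted p = 0.168).

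Espl1 and Bub3 were the extremes of this role over time. Espl1, which encodes separase, stood at 0.780, 0.195, 0.511 and 0.125 CPM in wild type and 0.645, 0.372, 0.345 and 1.24 CPM in knockout at day 7, and at 3.31, 4.58 and 20.3 CPM in wild type and 14.7, 86.4 and 30.8 CPM in knockout at day 14. It rose in both genotypes (log2 fold change 4.49 ± 0.81, edgeR adjusted p = 0.00141 in wild type; log2 fold change 6.10 ± 0.85, adjusted p = 0.00035 in knockout), in wild type also without replicate 3 (log2 fold change 3.23, adjusted p = 0.00506) and in both with a run term (adjusted p = 0.00404 and 0.0303). Bub3, a checkpoint protein that also serves in transcription and splicing in cells that do not divide, stood at 367 ± 48.9, 475 ± 72.7, 324 ± 33.0 and 463 ± 93.1 CPM in the order wild type and knockout at day 7, wild type and knockout at day 14. Its change over time was -0.18 ± 0.18 in wild type and -0.036 ± 0.18 in knockout (adjusted p = 0.538 and 0.93). All 3 wild-type day 14 libraries of Bub3 (307, 363 and 304 CPM) were below the knockout ones (409, 409 and 570.4 CPM), which did not pass (log2 fold change 0.51 ± 0.19, adjusted p = 0.157). The other 4 rose in knockout: Cdc20 by 3.05 ± 0.41, Ube2c by 4.86 ± 1.07, Bub1b by 4.57 ± 0.75 and Mad2l1 by 1.81 ± 0.49 (edgeR adjusted p = 0.000283, 0.0067, 0.00105 and 0.0214). In wild type Ube2c (log2 fold change 4.53 ± 1.11, adjusted p = 0.00982) and Bub1b (log2 fold change 3.01 ± 0.71, adjusted p = 0.0081) passed, and neither did without replicate 3 (adjusted p = 0.0572 and 0.0974).

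Of the 7 centromere and kinetochore genes Cenpa was called between genotypes at day 14, and all 7 were without wild-type replicate 3 (median log2 fold changes 1.75 and 4.09). Cenpa (ENSMUSG00000029177, chromosome 5, 30666777 to 30674830, plus strand) encodes the histone H3 variant that marks centromeres. It stood at 9.70, 10.6 and 12.3 CPM in wild type and 37.1, 36.4 and 57.1 CPM in knockout at day 14 (log2 fold change 2.00 ± 0.29, edgeR adjusted p = 0.00535; 2.10, adjusted p = 0.00186 without replicate 3). The 3 wild-type libraries lay close together here. At day 7 the values were 20.7, 16.2, 21.6 and 22.5 CPM in wild type and 22.9, 19.8, 31.1 and 38.3 CPM in knockout, which overlapped (log2 fold change 0.47 ± 0.24, adjusted p = 0.248). In wild type Cenpa fell over time (log2 fold change -0.90 ± 0.27, adjusted p = 0.0269; -0.998, adjusted p = 0.0228 without replicate 3), and in knockout the change was 0.64 ± 0.26 (adjusted p = 0.119; 0.80, adjusted p = 0.0492 without knockout day 7 replicate 4). It was called at day 14 in 23 of 24 alternative fits, the exception being the fit of the day 14 libraries alone.

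The outer kinetochore genes followed the common pattern instead. Ndc80, Nuf2, Spc24 and Spc25 encode the 4 subunits of the complex that holds microtubules. Spc24 stood at 1.75, 1.94 and 20.6 CPM in wild type and 25.3, 47.1 and 88.8 CPM in knockout (log2 fold change 2.73 ± 0.88, edgeR adjusted p = 0.114; 4.86, adjusted p = 0.00221 without replicate 3), and the groups did not overlap. For the other 3 subunits wild-type replicate 3 lay inside the knockout range. Nuf2 stood at 1.04, 0.668 and 24.6 CPM in wild type and 24.6, 16.1 and 35.98 CPM in knockout. Spc25 stood at 1.90, 0.301 and 13.4 CPM in wild type and 13.6, 13.0 and 25.7 CPM in knockout, which overlapped likewise. Ndc80 stood at 5.28, 1.44 and 23.1 CPM in wild type and 30.5, 15.4 and 27.3 CPM in knockout. At day 7 Ndc80 stood at 17.5, 15.5, 11.3 and 8.07 CPM in wild type and 6.02, 13.4, 11.7 and 6.77 CPM in knockout. Per length it was then above its partners in wild type, at 2.78 ± 0.953 RPKM against 0.0849 ± 0.0738 for Nuf2, 0.417 ± 0.132 for Spc24 and 0.539 ± 0.183 for Spc25. Spc24 rose in knockout by 4.83 ± 0.86, Nuf2 by 5.65 ± 1.27 and Spc25 by 3.67 ± 0.90 (edgeR adjusted p = 0.00178, 0.00763 and 0.0131), and Ndc80 did not pass (log2 fold change 1.36 ± 0.63, adjusted p = 0.184). In wild type Spc24 (log2 fold change 3.68 ± 0.85, adjusted p = 0.00709) and Nuf2 (log2 fold change 4.81 ± 1.25, adjusted p = 0.0142) passed with replicate 3 and not without it (adjusted p = 0.0794 and 0.262); without it Ndc80 fell (log2 fold change -1.97, adjusted p = 0.0166). The long genes Cenpe, a kinetochore motor, and Cenpf, which binds it, were low. Cenpe stood at 0.855, 0.0668 and 5.84 CPM in wild type and 10.8, 2.97 and 10.4 CPM in knockout at day 14. Cenpf stood at 0.372, 0.167 and 5.41 CPM in wild type and 7.42, 1.58 and 4.80 CPM in knockout. Cenpf rose over time there (log2 fold change 3.50 ± 0.98, adjusted p = 0.0259).

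None of the 6 spindle motors and spindle proteins was called between genotypes at day 14, and all 6 were without wild-type replicate 3 (median log2 fold changes 1.33 and 4.73). Without Kif4, which passed the filter only through day 14 libraries, the counts were 0 and 5 of 5. Kif2c, a motor that takes microtubules apart at the kinetochore, was the only 1 of the 6 whose groups did not overlap, at 1.64, 3.61 and 33.8 CPM in wild type and 45.9, 76.2 and 83.6 CPM in knockout (log2 fold change 2.40 ± 0.92, edgeR adjusted p = 0.165; 4.70, adjusted p = 0.00355 without replicate 3). Kif11, the motor that pushes the spindle poles apart, stood at 0.967, 0.0668 and 25.9 CPM in wild type and 16.04, 13.7 and 12.2 CPM in knockout (log2 fold change 0.63 ± 1.09, adjusted p = 0.771; 4.77, adjusted p = 0.00318 without replicate 3). Tpx2, which activates Aurora A on the spindle, stood at 2.75, 1.50 and 65.0 CPM in wild type and 46.5, 54.4 and 64.4 CPM in knockout (log2 fold change 1.25 ± 0.98, adjusted p = 0.471; 4.69, adjusted p = 0.00137 without replicate 3). In Kif11, Tpx2 and the chromosome motor Kif4 (0.558, 0.267 and 11.7 CPM in wild type and 9.87, 10.4 and 5.97 CPM in knockout), wild-type replicate 3 was above every knockout library. Nusap1, which bundles spindle microtubules, stood at 1.90, 0.868 and 46.1 CPM in wild type and 50.8, 30.5 and 52.7 CPM in knockout. Hmmr, a spindle protein also known as a hyaluronan receptor, stood at 0.558, 0.167 and 17.1 CPM in wild type and 20.0, 13.1 and 14.3 CPM in knockout. In these 2 replicate 3 lay within the knockout range. Over time in knockout Kif11 rose by 3.38 ± 1.09 and Kif2c by 4.92 ± 0.93 (adjusted p = 0.0492 and 0.00252); without knockout day 7 replicate 4 Kif11 did not pass (log2 fold change 3.60, adjusted p = 0.0818). Tpx2 rose by 4.30 ± 0.99, Nusap1 by 4.31 ± 1.03 and Hmmr by 4.42 ± 1.16 (adjusted p = 0.00895, 0.0108 and 0.0181). In wild type 4 of these 5 passed: Kif2c (log2 fold change 4.84 ± 0.96, adjusted p = 0.00269), Tpx2 (log2 fold change 3.57 ± 0.97, adjusted p = 0.0174), Nusap1 (log2 fold change 4.05 ± 1.03, adjusted p = 0.0123) and Hmmr (log2 fold change 4.58 ± 1.21, adjusted p = 0.0154). Without replicate 3 Kif2c alone kept its rise (log2 fold change 2.54, adjusted p = 0.0152), and Kif11 fell (log2 fold change -2.18, adjusted p = 0.0384). Kif4, given without a test over time, stood at 0.167, 0.423, 0.223 and 0.0418 CPM in wild type and 0, 0.304, 0.313 and 1.24 CPM in knockout at day 7.

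The 6 genes of the central spindle and cytokinesis included 1 gene called between genotypes at day 14 and 5 without wild-type replicate 3 (median log2 fold changes 1.31 and 3.48). Depdc1b (ENSMUSG00000021697, chromosome 13, 108316332 to 108407782, plus strand) encodes a protein with a DEP domain and a RhoGAP-like domain linked to cell division. It stood at 20.2, 23.04, 23.7 and 28.6 CPM in wild type and 21.3, 20.0, 19.3 and 14.0 CPM in knockout at day 7, and at 2.97, 2.91 and 11.2 CPM in wild type and 30.8, 31.5 and 39.3 CPM in knockout at day 14. All wild-type libraries at day 14 were below, and all knockout libraries above, every day 7 library of their genotype, and the genotypes did not overlap at day 14 (log2 fold change 2.57 ± 0.44, edgeR adjusted p = 0.0116; 3.52, adjusted p = 5.52e-05 without replicate 3). The fall in wild type passed the test (log2 fold change -2.07 ± 0.41, adjusted p = 0.00288; -3.02, adjusted p = 1.38e-05 without replicate 3), and the rise in knockout passed only without replicate 3 (log2 fold change 0.86 ± 0.38, adjusted p = 0.163; 0.86, adjusted p = 0.00708 without replicate 3).

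Racgap1 and Kif23 encode the 2 subunits of centralspindlin, the complex that gathers the RhoA activator Ect2 at the cell equator. Racgap1 stood at 25.7, 37.2 and 103 CPM in wild type and 106, 185 and 206 CPM in knockout at day 14, without overlap (log2 fold change 1.58 ± 0.41, edgeR adjusted p = 0.0647; 2.40, adjusted p = 0.00063 without replicate 3). Kif23 stood at 22.2, 18.0 and 72.0 CPM in wild type and 52.7, 24.1 and 26.1 CPM in knockout at day 14, and at 52.9, 55.0, 36.5 and 38.6 CPM in wild type and 26.2, 49.6, 41.9 and 34.3 CPM in knockout at day 7. All 4 groups of Kif23 overlapped: its genotype difference at day 14 was -0.12 ± 0.46 (adjusted p = 0.904) and its change in knockout -0.15 ± 0.43 (adjusted p = 0.878). Whether the partners differ from each other was not tested. Kif20a, the motor that brings the passenger complex to the central spindle, stood at 2.31, 2.81 and 59.4 CPM in wild type and 69.2, 97.2 and 91.7 CPM in knockout (log2 fold change 2.00 ± 0.87, adjusted p = 0.206; 5.07, adjusted p = 5.52e-05 without replicate 3). Its exons overlap Cdc23 on the other strand, and the sources used here do not say whether reads were counted by strand. Prc1, which bundles microtubules between the poles, stood at 1.64, 1.00 and 34.6 CPM in wild type and 32.5, 20.4 and 23.8 CPM in knockout. Ect2 stood at 1.64, 0.468 and 22.1 CPM in wild type and 18.1, 9.16 and 7.03 CPM in knockout. In both, wild-type replicate 3 was above the knockout libraries. In knockout Racgap1 rose by 1.69 ± 0.37, Kif20a by 4.18 ± 0.85, Prc1 by 3.14 ± 0.84 and Ect2 by 3.24 ± 0.91 (edgeR adjusted p = 0.00647, 0.00421, 0.0205 and 0.0255). Without knockout day 7 replicate 4 Prc1 and Ect2 did not pass (adjusted p = 0.0509 and 0.0597). In wild type none of the 6 rose, and without replicate 3 the 4 genes Depdc1b, Prc1 (log2 fold change -1.63, adjusted p = 0.00396), Kif23 (log2 fold change -1.19, adjusted p = 0.0234) and Racgap1 (log2 fold change -0.95, adjusted p = 0.0164) fell.

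The last 5 genes act on mitotic chromosomes or mark dividing cells; 0 of them were called between genotypes at day 14 and 4 without wild-type replicate 3 (median log2 fold changes 1.90 and 2.96). Birc5, or survivin, which targets Aurora B to centromeres, stood at 2.53, 4.61 and 23.9 CPM in wild type and 38.2, 72.1 and 129 CPM in knockout at day 14 (log2 fold change 2.94 ± 0.79, edgeR adjusted p = 0.0713; 4.48, adjusted p = 0.00306 without replicate 3). Cdca3, which helps degrade WEE1, stood at 4.76, 4.41 and 32.8 CPM in wild type and 38.5, 68.5 and 128 CPM in knockout (log2 fold change 2.48 ± 0.72, adjusted p = 0.0864). Cdca2, a phosphatase partner on anaphase chromatin, stood at 8.51, 9.85 and 39.0 CPM in wild type and 45.9, 76.8 and 91.3 CPM in knockout (log2 fold change 1.90 ± 0.48, adjusted p = 0.0646). In these 3 the groups did not overlap, and all 3 were called without replicate 3. In the 2 large genes of the group replicate 3 was level with the knockout or above it. Top2a, the topoisomerase that untangles sister chromatids, stood at 17.5, 5.54 and 148 CPM in wild type and 82.1, 90.5 and 86.5 CPM in knockout (log2 fold change 0.60 ± 0.79, adjusted p = 0.696), with replicate 3 above all other libraries. Mki67, the Ki-67 protein of the chromosome surface, stood at 2.75, 0.334 and 10.2 CPM in wild type and 9.66, 8.67 and 10.4 CPM in knockout (log2 fold change 1.10 ± 0.91, adjusted p = 0.494; 2.64, adjusted p = 0.0606 without replicate 3). In knockout Birc5 rose by 5.17 ± 0.78, Cdca3 by 4.39 ± 0.70, Cdca2 by 2.75 ± 0.45 and Top2a by 2.93 ± 0.77 (adjusted p = 0.000608, 0.000856, 0.00102 and 0.0181). In wild type Birc5 (log2 fold change 4.08 ± 0.78, adjusted p = 0.00207) and Cdca3 (log2 fold change 2.65 ± 0.67, adjusted p = 0.0114) rose, and Birc5 also without replicate 3 (log2 fold change 2.55, adjusted p = 0.00918).

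Where wild-type day 14 replicate 3 fell against the knockout differed by gene, and the sets of genes so formed differed in median length and GC content. In 22 of the 45 genes it was below all 3 knockout libraries, in 15 within their range and in 8 above them. The median length over which the authors counted reads was 1.23 kb for the 22, 1.93 kb for the 15 and 2.80 kb for the 8. The median GC content of the coding sequence was 52.1%, 44.2% and 44.9% in the same order. The part of length or GC content in these places was not tested. Short genes such as Cks1b (0.24 kb), Cenpa (0.50 kb) and Birc5 (0.45 kb) had knockout means 3.53, 3.53 and 3.33 times that library's level, while Kif11 (3.16 kb), Kif23 (2.86 kb) and Ect2 (2.74 kb) had 0.538, 0.476 and 0.517 times. Long genes were not all alike: Espl1 (6.36 kb) had 2.16 times. Over all tested genes the slope of log2 CPM per doubling of length was 0.136 in wild-type day 14 replicate 3. It was 0.0956 and -0.0204 in wild-type day 14 replicates 1 and 2, and 0.0626 to 0.253 in wild type at day 7. In knockout day 14 replicates 1 to 3 it was -0.132, -0.0104 and -0.299. After correction of every library for its trends over GC content and coding length, 12 of the 44 genes were called higher in knockout at day 14 and 0 lower, against 2.42% and 2.26% of all tested genes.

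**Figure D4:**
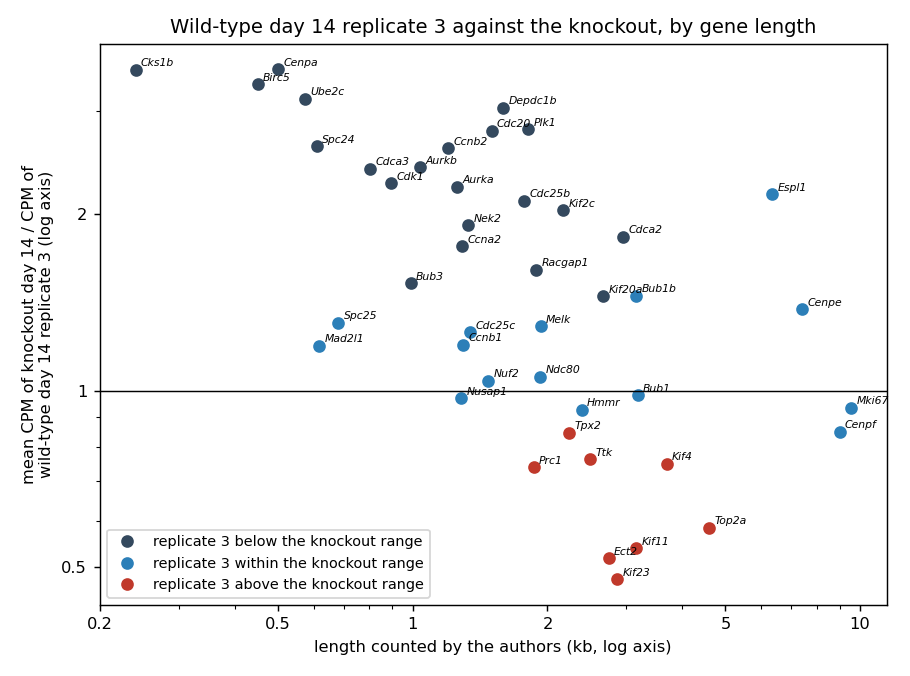
Ratio of the mean knockout day 14 CPM to the CPM of wild-type day 14 replicate 3 (log axis) against the length over which reads were counted (kb, log axis), 1 point per gene, without Cks2. The 4 shortest genes plotted lie above 3 and the genes with replicate 3 above the knockout range are 1.86 to 4.59 kb long.

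At day 7 no gene of the list was called between genotypes. The counts were 0 higher and 0 lower of 44, against 0.0518% and 0.0431% of all tested genes, with 4 higher and 0 lower at an unadjusted p under 0.05 and 1 called by DESeq2, Kif2c (1.74% of all its genes higher and 1.52% lower). The median log2 fold change was 0.57 (all tested genes: -0.012), from -1.29 for Ect2 to 2.61 for Ube2c. Knockout replicate 4 was the highest library in the genes at the upper end. Ube2c stood at 1.20, 0.372, 0.846 and 9.83 CPM in the knockout libraries against 0.278, 0.228, 0.894 and 0.585 CPM in wild type. Ccnb2 stood at 2.93, 1.59, 1.16 and 15.3 against 1.09, 1.72, 1.56 and 1.46 CPM in the same order, and Cdk1 at 7.19, 6.35, 6.99 and 21.0 against 4.29, 6.18, 5.59 and 6.65 CPM. Without that library the median was 0.13, and 0 of the 44 genes had an unadjusted p under 0.05. Without wild-type day 14 replicate 3, which enters only through the shared spread, 0 were called at day 7 in either direction (0.0681% of all tested genes higher and 0.051% lower). The library also had the steepest fall of log2 CPM with length of all 14 (-0.327 per doubling), and a part of that trend in its levels was not tested. Genes of the central spindle had 5 of 6 log2 fold changes under 0 at day 7 (median -0.31), and those of CDK1 and its partners 6 of 7 above 0 (median 0.87). Without knockout replicate 4 the medians were -0.21, with 0 of 6 above 0, and 0.38, with 6 of 7 above 0.

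The interaction of genotype and day, which asks whether the genotype difference changed between day 7 and day 14, was called for 0 of the 44 genes in either direction, against 0.0604% of all tested genes higher and 0.0259% lower. At an unadjusted p under 0.05, 7 were higher and 0 lower, DESeq2 called 2 (Cenpa and Depdc1b), and the median was 1.23 (all tested genes: 0.059). The smallest adjusted p was that of Depdc1b (log2 fold change 2.93 ± 0.56, edgeR adjusted p = 0.0698), followed by Cenpa (log2 fold change 1.53 ± 0.37, adjusted p = 0.166). Without wild-type day 14 replicate 3, 23 genes were called higher and 0 lower (2.31% and 0.919% of all tested genes), Depdc1b (log2 fold change 3.88, adjusted p = 0.000194), Kif20a (log2 fold change 4.94, adjusted p = 0.000302) and Prc1 (log2 fold change 4.77, adjusted p = 0.000306) with the smallest adjusted p among them. With all 14 libraries limma-voom called 32 higher, against 2.98% of all tested genes, and a GC and length offset 2, against 0.303%. Without knockout day 7 replicate 4 the interaction had a median of 1.77 and 0 calls in either direction.

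The comparison of day 14 with day 7 asked how these genes change in prolonged culture within each genotype. Of the 41 genes, 33 were called higher in knockout and 1 lower, with a median of 3.46. Of all tested genes 10.5% were called higher and 4.92% lower, and of the 11003 that reach the same cutoff in 3 or more day 7 libraries 8.7% and 5.16% (median -0.01). In wild type 18 of the 41 were called higher and 3 lower, with a median of 2.17. The shares there were 13.2% and 7.33% of all tested genes, and 11% and 7.73% of the 11003 (median -0.04). The 19 genes called in both make up 19 of the 34 called in knockout and 19 of the 21 called in wild type. Cenpa and Depdc1b were called in wild type alone, both lower, and Bub3, Cenpe, Kif23, Mki67 and Ndc80 in neither. Without wild-type day 14 replicate 3 the wild type changed: 4 genes were higher (Espl1, Birc5, Kif2c and Nek2) and 8 lower (Cdc25b, Cenpa, Depdc1b, Kif11, Kif23, Ndc80, Prc1 and Racgap1), against 14.4% and 15.7% of all tested genes, and the median was 0.06. Of the 21 genes called in wild type with all libraries 7 were kept. Without wild-type day 14 replicate 2, 28 were called higher, against 11.6% of all tested genes. The fit without replicate 3 called 37 genes higher and 1 lower in knockout (13.1% and 7.5% of all tested genes). The knockout count moved with single libraries: 23 to 26 were called higher without knockout day 7 replicate 1, 2 or 3 or without knockout day 14 replicate 3. Without knockout day 7 replicate 4, 31 were called higher and 1 lower, with a median of 3.81; Ect2, Kif11 and Prc1 lost their call and Cenpa gained one.

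With that sign of the sequencing run as a term, 2 genes were called higher in knockout over time (Cdc20 by 2.68 and Espl1 by 4.70; adjusted p = 0.0332 and 0.0303) and 0 lower, while 2.27% of all tested genes were still called higher. In wild type, where runs are mixed within both days, 4 were called higher with that term (Espl1, Birc5, Kif2c and Nek2) and 3 lower (Cdc25b, Cenpa and Depdc1b), against 10.8% and 7.7% of all tested genes. At day 14 the run term left 4 of the 5 genotype calls, all but Plk1.

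**Figure D5:**
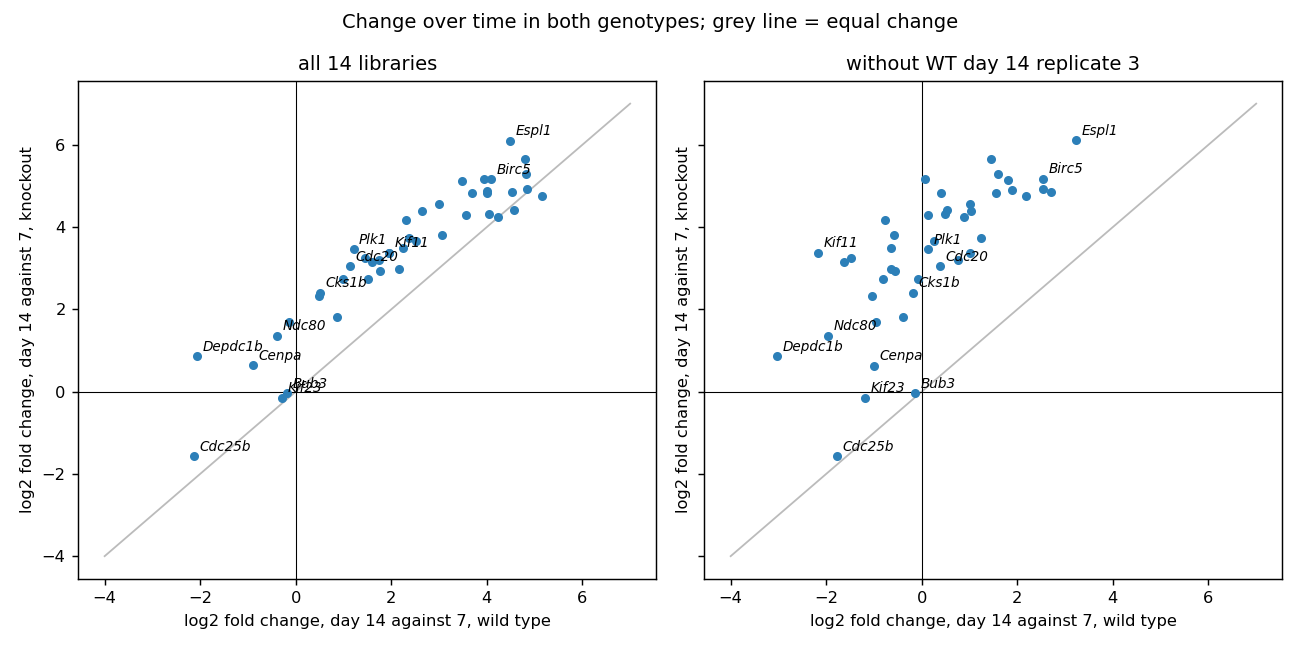
Log2 fold change from day 7 to day 14 in knockout (vertical axis) against wild type (horizontal axis) for the 44 tested genes, Cdc25c, Bub1 and Kif4 included, with all libraries (left) and without wild-type day 14 replicate 3 (right); the grey line marks equal change. On the left most genes lie in the upper right, and on the right the wild-type changes scatter around 0 while the knockout changes stay in place; the 2 axes share no libraries but come from 1 fit.

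Other genes of the cell cycle, in lists drawn up by function, were set beside the 45. In these lists the counts of genes called between genotypes at day 14 were small with all libraries and larger without wild-type replicate 3. Of all tested genes 0.845% were called higher and 0.578% lower with all libraries, and 12.6% and 9.89% without replicate 3. Of 30 further spindle and kinetochore genes, 1 was called higher with all libraries, the chromosome motor gene Kif22 (log2 fold change 1.72 ± 0.31, edgeR adjusted p = 0.0156), and 25 without replicate 3, with 0 lower in both. The medians were 1.18 and 3.21. Over the 26 that reach the cutoff in 3 or more day 7 libraries the counts were 1 and 23. Of 26 S phase genes 0 and 23 were called higher and 0 lower (medians 1.09 and 1.76), and Mcm2, the gene with the most reads, stood at 526, 529 and 579.7 CPM in wild type and 224, 758 and 652 CPM in knockout (log2 fold change -0.00097 ± 0.33, adjusted p = 1). Of 20 condensin and cohesin genes 1 and 4 were called higher (medians 0.24 and 0.90), the first being Cdca5 or sororin, which protects cohesion (log2 fold change 2.03 ± 0.44, adjusted p = 0.0359). The summed level of the S phase genes was 1842 and 1928 CPM in wild-type day 14 replicates 1 and 2, 3766 CPM in replicate 3 and 2265, 5062 and 5371 CPM in the knockout libraries, so that replicate 3 lay inside the knockout range.

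Regulators of the G2 and M genes gave the following counts, to be set against the same shares of all tested genes. Of 22 genes of their transcriptional control 0 were called with all libraries and 7 higher without replicate 3 (medians 0.41 and 0.65). Over the 21 that reach the cutoff in 3 or more day 7 libraries the counts were 0 and 6. Rbbp4, a subunit of the MuvB core and the gene with the most reads, stood at 482 ± 69.6 CPM in wild type and 683 ± 154 CPM in knockout (log2 fold change 0.50 ± 0.18, edgeR adjusted p = 0.142). Foxm1, which drives G2 and M transcription, rose over time in knockout (log2 fold change 3.87 ± 0.61, adjusted p = 0.000764) from 3.92, 2.57, 1.72 and 1.68 CPM to 10.8, 62.6 and 34.9 CPM. Of 17 subunits and regulators of the anaphase-promoting complex 0 were called with all libraries, and 4 higher and 1 lower without replicate 3 (medians 0.49 and 0.61); Anapc5, the gene with the most reads, differed by 0.67 ± 0.19 (adjusted p = 0.0767). Of 12 genes that control entry into mitosis, brakes and the greatwall pathway among them, 1 was called higher with all libraries and 7 without replicate 3. The first was Bora, a partner of Aurora A in activating PLK1 (log2 fold change 1.28 ± 0.28, adjusted p = 0.0348). Over the 10 that reach the cutoff in 3 or more day 7 libraries the counts were 1 and 5. Of 7 tested G1 cyclins and kinases 0 and 4 were called higher, and Ccnd2, the gene with the most reads, did not pass (log2 fold change 0.44 ± 0.35, adjusted p = 0.474).

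Among the 6 tested CDK inhibitors the call with all libraries was Cdkn2c, which encodes p18 INK4c and restrains CDK4 and CDK6. It stood at 9.89, 10.1 and 11.9 CPM in the wild-type day 14 libraries and 35.6, 32.2 and 45.3 CPM in the knockout ones, higher by 1.83 ± 0.22 (edgeR adjusted p = 0.00144; 1.92, adjusted p = 0.00063 without replicate 3). The groups did not overlap, and wild-type replicate 3 was at the level of replicates 1 and 2. At day 7 its means were 11.4 ± 1.37 CPM in wild type and 13.8 ± 1.47 CPM in knockout, and it rose over time in knockout (log2 fold change 1.45 ± 0.20, adjusted p = 0.000334). Without replicate 3, 2 inhibitors were called higher and 1 lower, against 12.6% and 9.89% of all tested genes. Of the 5 that reach the cutoff in 3 or more day 7 libraries, 1 was then higher and 1 lower. Cdkn1a, which encodes p21, rose over time in wild type (log2 fold change 4.50 ± 0.68, adjusted p = 0.000406) to 362, 337 and 387 CPM, with no library apart.

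Over time the same lists gave these counts with all libraries, over the genes that reach the cutoff in 3 or more day 7 libraries. Of all tested genes that do so, 8.7% rose and 5.16% fell in knockout, and 11% rose and 7.73% fell in wild type. In knockout 21 of 26 further spindle and kinetochore genes rose and 0 fell, Kif22 (2.02 ± 0.28, edgeR adjusted p = 0.00035) and Cdca8, a passenger subunit (4.30 ± 0.62, adjusted p = 0.000431), with the smallest adjusted p. In wild type 7 of them rose and 0 fell. Of the 26 S phase genes 16 rose in knockout and 8 in wild type, with 0 lower in both; Chaf1b, of the chromatin assembly factor that loads histones behind the fork, rose in knockout (1.98 ± 0.24, adjusted p = 0.000148). Of 10 genes that control entry into mitosis 6 and 2 rose, of 21 genes of transcriptional control 6 and 3, and of the 20 condensin and cohesin genes 7 and 4, with 1 of the last lower in each genotype. Of the 17 genes of the anaphase-promoting complex 0 rose in either genotype and 1, Anapc5, fell in wild type (-0.64 ± 0.18, adjusted p = 0.0191). Of the 7 tested G1 genes 4 rose in knockout and 1, Cdk6, in wild type. Of 5 CDK inhibitors 2 rose and 1 fell in knockout, and 1 rose and 0 fell in wild type. At day 7, and in the interaction, 0 genes of these 8 lists were called by edgeR with all libraries.

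Markers of T cells were abundant in every library: the summed level of 10 T and Th2 markers was 7013 to 13266 CPM, with group means of 439.4 to 544 CPM for Gata3, the defining factor of Th2 cells, and of 1.36 to 9.70 CPM for Il4. At day 14 the sum was 10852 to 13266 CPM in wild type and 7013 to 9627 CPM in knockout, without overlap. Il4ra (5362 to 7431 against 1391 to 3768 CPM) and Cd4 (309 to 395 against 145 to 231 CPM) were lower in every knockout library. The other markers of this list overlapped between genotypes at day 14. Of the markers of other cell types, 3 lists did not overlap between genotypes at day 14. The sum of 5 mast cell markers was 1.17 to 5.69 CPM in wild type and 22.5 to 129.8 CPM in knockout. Cpa3, a mast cell protease, stood at 5.58, 1.00 and 4.70 CPM in the wild-type libraries and at 120.3, 12.9 and 23.8 CPM in the knockout libraries. Kit, the stem cell factor receptor of mast cells, stood at 0.0744, 0 and 0.124 CPM in wild type and at 9.45, 9.59 and 2.02 CPM in knockout. The other detected mast cell markers were near 0 and not higher in knockout at day 14. Fcer1a stood at 0.0372, 0.0668 and 0 CPM in wild type and at 0 in every knockout library. Tpsb2 stood at 0, 0.100 and 0 CPM in wild type and likewise at 0 in knockout. Ms4a2 was at 0 in every library. At day 7 the mast cell sum was 31.0 to 65.1 CPM in wild type and 47.6 to 82.3 CPM in knockout. The sum of Cd8a and Cd8b1, markers of CD8 T cells, was 6.32 to 7.92 CPM in wild type and 11.4 to 20.6 CPM in knockout at day 14. At day 7 it was 6.67 to 10.2 CPM in wild type and 10.5 to 21.0 CPM in knockout. The erythroid sum at day 14 was 0 to 0.0334 CPM in wild type and 0.593 to 0.709 CPM in knockout. The myeloid sum at day 14 was 8.74 to 30.6 CPM in wild type, highest in replicate 3, and 17.3 to 28.2 CPM in knockout, with Itgax at 0. B cell and NK cell sums stayed under 4.3 CPM in every library. The part of other cell types in the levels of the G2 and M genes was not tested.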

How the data were processed

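The submitters' processing notes list GSNAP and the mouse build GRCm38 for these 14 Th2 libraries. Counting tool, annotation and strand setting were not given in the sources used here. The authors deposited, for each of 22598 genes, a whole-number read count, the length counted over and an RPKM value (reads per kilobase of coding length, scaled to library size), per the file headers. Gene symbols came from GENCODE vM21, which named 22457 genes. Counts were filtered with filterByExpr, scaled by TMM and fitted with edgeR 4.0.16 (R 4.3.3; robust quasi-likelihood, 1 mean per group over all 14 libraries) for 5 comparisons, with adjustment over 11591 tested genes and a threshold of 0.05. CPM values use the scaled totals. RPKM served only to order levels between genes. The SE is the absolute log2 fold change divided by the square root of F. The common biological coefficient of variation was 0.354.

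The 45 genes and all lists were chosen with earlier results of these data known. Statistics are given in full for each of the 45 called in any comparison and for the 2 with the most CPM in each role; in the other lists at most the 3 called genes with the smallest adjusted p, or the gene with the highest mean CPM, are named. Alternatives were other scalings and filters, a replicate block, a term for the identifiers in the table names (a sign of the sequencing run), a GC and coding length offset, limma-voom with sample weights (limma 3.58.1), DESeq2 1.42.0 and leaving out each library. The edgeR steps were tested on simulated data. Near-identical copies were transcripts of other genes, pseudogenes included, that matched a gene's longest coding transcript. Matches had at least 90% identity and covered at least 50% of its length, and 7 of the 45 genes had such a copy. The identity given is that of the best match. Promoter windows are RefSeq's. Protein sequences were not used here.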

Additional observations from a re-analysis of the deposited data

Results flagged for a closer look

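In groups of 4 libraries, a library was singled out where its gap to the nearest other, divided by the range of the group, exceeded the critical value of Dixon's test for 4 samples. Of 90 groups checked (45 genes at day 7 in both genotypes) 17 did so. The critical value stands for about 1 in 20 groups of normally distributed values. Some of these CPM rest on few reads, and the share over all tested genes was not counted. The number 17 is therefore not read as an excess in these genes. In 13 of the 17 groups the library was knockout day 7 replicate 4, as the highest. The ratio was 0.943 for Cdk1, 0.861 for Ccna2 and 0.875 for Ccnb2 among the cyclins and their kinase. It was 0.913 for Aurka and 0.83 for Aurkb, the Aurora kinases. It was 0.873 for Cdc20, 0.912 for Ube2c and 0.876 for Bub1b at the checkpoint and the anaphase-promoting complex. It was 0.927 for Spc24, 0.838 for Kif2c, 0.889 for Tpx2, 0.865 for Kif20a and 0.978 for Cdca3. The genes are not independent of each other, since they come from the same library. In wild type at day 7 replicate 4 was the library singled out in Ccnb1 (0.955) and Cdc25c (0.879), at 0.334 CPM in both. These 2 ratios rest on few reads: Ccnb1 had 8, 7, 7 and 8 reads in replicates 1 to 4 and Cdc25c 1, 2, 1 and 8. Replicate 2 was the lowest in Aurka (0.845) and the highest in Tpx2 (0.843).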

How the results depend on the processing

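Of the values compared under alternatives, 2577 kept their direction and side of the threshold, 140 newly passed it, 166 no longer did and 30 changed sign. At day 14, 5 genes were called higher in knockout with all libraries (0.845% of all tested genes). A fit of the compared libraries alone called 0 (0%), a replicate block 11 (1.26%) and a GC and coding length offset 12 (2.42%). The count was 39 with limma-voom (9.7%) and 15 with DESeq2 (3.29%). With 1 library left out it was 1 to 40. The 1 came without wild-type replicate 1 (0.263%) or knockout replicate 3 (0.28%), and the 40 without wild-type replicate 3 (12.6%). At day 7 limma-voom called 3 higher and 2 lower, against 20% and 23.8% of all tested genes, and DESeq2 1 higher, against 1.74%. In the interaction the offset gave 2 higher (0.303% of all tested genes), DESeq2 2 (0.386%) and limma-voom 32 (2.98%). Leaving out libraries gave 0 to 23, the 23 without wild-type day 14 replicate 3 (2.31%). The interaction has no separate fit of compared libraries. Over time in wild type the higher count was 18 (13.2% of all tested genes). It became 4 with a run term (10.8%) and 11 with limma-voom (19.3%). With libraries left out it ran from 4 without day 14 replicate 3 (14.4%) to 28 without day 14 replicate 2 (11.6%). The lower count of 3 (7.33%) became 6 with limma-voom (20.4%). With libraries left out it was 2 to 8, the 8 without day 14 replicate 3 (15.7%). In knockout the run term gave 2 higher and 0 lower, against 2.27% and 0.923% of all tested genes. The cause was not tested.

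These log2 fold changes changed sign. Between genotypes at day 7 Cenpa was -0.04298 with the offset, and Plk1 ranged from -0.05468 to 0.4207 with 1 library left out. At day 14 Cdc25b was 0.005333 on library totals only, 0.06459 with the offset and -0.4301 to 0.3531 with libraries left out. Kif23 was 0.07571 with the offset, 0.3632 with limma-voom and -0.5742 to 0.7721, and Ect2 -0.05739 to 3.446. Bub1 in the interaction was 1.269 with a replicate block, 1.858 with limma-voom and -1.623 to 2.577. Over time in wild type Cks1b was -0.01518 with limma-voom and -0.1792 to 0.7661, and Melk -0.5583 with limma-voom and -0.5741 to 3.625. In knockout Bub3 was 0.04923 with a replicate block, 0.1853 with a run term, 0.01247 with limma-voom and -0.2155 to 0.04419, Ndc80 -0.474 with a run term, and Kif23 -0.5993 to 0.05063. With the offset the median of all tested genes was -0.132 over time in wild type and -0.149 in knockout. Without it the medians were -0.00196 and 0.0209. Where a library left out leaves 2 in a group, the spread is pooled over groups.

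Replicate numbers were not shown to pair the samples: same-numbered libraries correlated at -0.116, 0.417, -0.0932 and 0.271 between genotypes at day 7 and at 0.194, 0.35 and 0.0495 at day 14. The replicate block gave 0 calls at day 7 and in the interaction. Over time in wild type it gave 14 higher and 3 lower, against 12.3% and 6.86% of all tested genes.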
